A study of Mus musculus with 16 samples.

Results

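Pde4b, Mfsd2a and Pstpip2 are 3 of the 41079 genes in the deposited liver table, and 3 of the 3 were among the 16742 genes that passed a filter on low counts and were tested. They were chosen by their read counts in LKO and CRE- livers of males and of females, for being lower in livers of LKO mice, which are liver-specific knockouts of the glucagon receptor. Those values are given here as a description, with no test. The genes were proposed as strongly lowered in both sexes with little overlap. In males LKO and CRE- libraries did not overlap for any of the 3 genes, but in females only Pstpip2 was without overlap, so the genes are called by their names.

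Liver RNA was sequenced from 16 mice aged 20 to 22 months, all on a C57BL/6J background and all with floxed Gcgr, the gene of the glucagon receptor. The 4 male LKO and 4 female LKO mice also carried an Albumin-Cre transgene. The 4 male CRE- and 4 female CRE- controls had the floxed gene without Cre. The gene counts of a library summed to 33268424 at the lowest and 56488920 at the highest. Albumin-Cre acts in hepatocytes and from early life on, so the mice had aged without the receptor in hepatocytes. Whether other liver cells kept the receptor was not measured. No group carried Cre without floxed Gcgr, so a difference that comes with Cre itself cannot be told apart from loss of the receptor. The RNA came from whole tissue, in which fewer cells of a type and less RNA per cell cannot be told apart.

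Glucagon binds its receptor on hepatocytes, and the receptor acts through a stimulatory G protein and adenylyl cyclase to raise cAMP, which activates protein kinase A and the transcription factor CREB. Pde4b is a phosphodiesterase that breaks cAMP down again, and Mfsd2a is a membrane transporter that carries lysophosphatidylcholine into cells and is known as a liver gene of the fasted state. Pstpip2 is an F-BAR adaptor protein of the cell membrane, not a metabolic enzyme, and is known from macrophages and neutrophils, where it restrains inflammation.

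The targeted gene was measured over its whole length, so its count includes exons outside the floxed segment and cannot show loss of the floxed exons. The paper on these mice measured Gcgr transcripts separately in tissues of males and females, and reported a reduction in the liver alone. Values are normalized read counts in CPM, which are counts relative to the library total after TMM scaling (a trimmed mean over genes). Gcgr was at 190, 193, 127 and 190 CPM in male CRE- livers and at 117, 136, 130 and 160 CPM in male LKO livers. In females it was at 162, 208, 201 and 180 CPM in CRE- livers and at 48.8, 132, 119 and 93.6 CPM in LKO livers. The groups overlapped in males, where male CRE- replicate 3 was as low as LKO livers, and did not overlap in females. Gcgr fell by 0.93 on the log2 scale in female LKO livers (SE 0.25, lower in 4 of 4 libraries), with an edgeR p of 0.0443 after Benjamini-Hochberg adjustment for all genes tested. That test did not call Gcgr without any 1 of the 4 female CRE- libraries (adjusted p 0.0573 to 0.136 from edgeR) or without female LKO replicate 1, 3 or 4 (0.0802, 0.0519 and 0.0841), nor with the 2 female groups fitted alone (0.132) or with no filter on low counts (0.0545). edgeR's test did call Gcgr with RLE scaling (0.0485), with a replicate block (0.0266) and without female LKO replicate 2 (0.0225), as DESeq2 did (0.00807).

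Pde4b, the phosphodiesterase, was at 21.5, 20.4, 23.8 and 18.6 CPM in the 4 male CRE- livers (mean 21.1, SD 2.15). In the 4 male LKO livers it was at 5.17, 5.25, 5.32 and 4.75 CPM (mean 5.12, SD 0.252). All male LKO livers were low and close to each other, and the lowest male control was 3.50 times the highest male LKO liver. Female CRE- livers had 28.6, 16.9, 21.5 and 14.7 CPM (mean 20.5, SD 6.14). Female LKO livers had 16.6, 13.1, 8.62 and 25.3 CPM (mean 15.9, SD 7.07). The female groups overlapped: replicate 4 of the LKO livers was above 3 of the 4 controls, and only 2 of 4 LKO livers were below every control. The log2 fold change of LKO against CRE- was -2.04 (SE 0.28) in males and -0.37 (SE 0.26) in females, which leaves 24.3% of the control mean in males and 77.6% in females. In females it was -0.69 without LKO replicate 4, -0.16 without LKO replicate 3 and -0.16 without CRE- replicate 1. Ordered by mean CPM, Pde4b was highest in male CRE-, then female CRE-, female LKO and male LKO livers, and of these neighbours only the last pair did not overlap.

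Mfsd2a, the lysophosphatidylcholine transporter, was at 53.6, 115.6, 55.4 and 47.8 CPM in male CRE- livers (mean 68.1, SD 31.9). Male LKO livers had 8.36, 3.81, 3.03 and 5.30 CPM (mean 5.12, SD 2.35). Replicate 2 stood above the other male controls, every male LKO liver was low, and the lowest control was 5.72 times the highest LKO liver. Female CRE- livers had 18.1, 35.2, 40.2 and 24.9 CPM (mean 29.6, SD 9.99). Female LKO livers had 10.4, 43.2, 8.47 and 17.1 CPM (mean 19.8, SD 16.05). In females 3 of 4 LKO livers were below every control and LKO replicate 2 was above every control. The log2 fold change was -3.73 (SE 0.52) in males and -0.58 (SE 0.46) in females, with the LKO mean at 7.52% of the control mean in males and 66.9% in females. The female value was -1.31 without LKO replicate 2, -0.35 without LKO replicate 1 and -0.33 without LKO replicate 3. The order of the means was male CRE-, female CRE-, female LKO and male LKO. Female controls lay below male controls with no overlap, the female groups overlapped, and the lowest female LKO liver was 1.01 times the highest male LKO liver.

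Pstpip2, the F-BAR adaptor, was at 43.1, 53.6, 45.3 and 52.0 CPM in male CRE- livers and at 15.4, 16.5, 15.2 and 16.2 CPM in male LKO livers. The male LKO values spanned a narrow range (SD 0.636), and the lowest male control was 2.62 times the highest male LKO liver. In females the CRE- livers had 66.1, 42.8, 50.4 and 62.4 CPM (mean 55.4, SD 10.8). The female LKO livers had 27.6, 26.0, 22.1 and 37.3 CPM (mean 28.2, SD 6.44). Every female LKO liver was below every female control, by a factor of 1.15 at the nearest pair. Log2 fold changes were -1.62 (SE 0.18) in males and -0.97 (SE 0.17) in females, so that 32.6% of the control mean was measured in male LKO and 51.0% in female LKO livers. By mean CPM the order was female CRE-, male CRE-, female LKO and male LKO livers, where the control groups overlapped and the other neighbours did not.

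**Figure D1:**
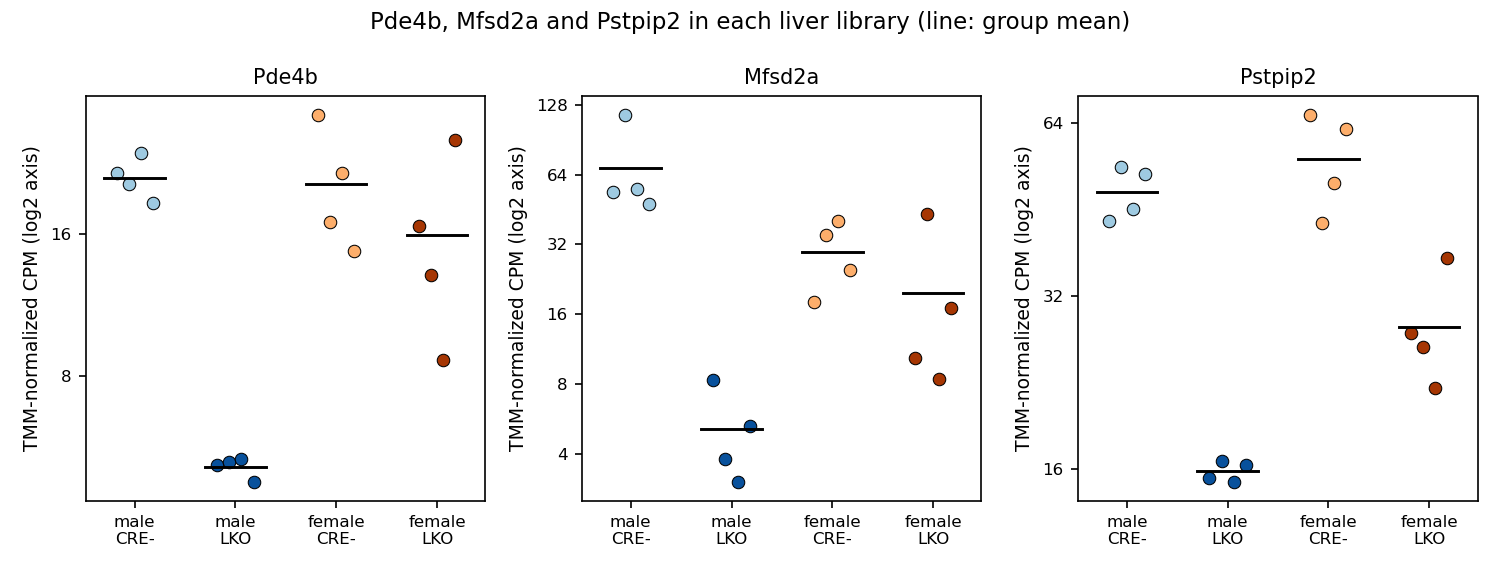
Normalized read counts (TMM-scaled CPM, log2 axis) of Pde4b, Mfsd2a and Pstpip2 in each of the 16 liver libraries, by sex and genotype; points are mice and lines are group means of 4 mice. The 4 male LKO livers lie under the male controls for each gene, while the female groups overlap for Pde4b and Mfsd2a.

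All 4 male LKO livers were below all 4 male controls for 3 of 3 genes, as they were for 489 of the 16742 genes tested (2.92%). In females this held for 1 of 3, against 1074 genes (6.42%), and in both sexes for 1 of 3, against 106 genes (0.633%). Over all genes, the quasi-likelihood test of edgeR at an adjusted p under 0.05 called 39 lower (0.233%) and 37 higher (0.221%) in male LKO livers, and 360 lower (2.15%) and 350 higher (2.09%) in female LKO livers. DESeq2 called 339 of 16684 genes (2.03%) in males and 1816 of 16359 (11.1%) in females. These contrasts chose the 3 genes, so nothing is read from their place in these counts. The edgeR total in males was 26 without CRE- replicate 3, 28, 32 and 49 without CRE- replicate 1, 2 or 4, and 39 to 43 without any 1 of the male LKO libraries. In females it was 87, 122 and 110 without CRE- replicate 2, 3 or 4, 385 without CRE- replicate 1, 237 and 404 without LKO replicate 1 or 4, and 1310 without LKO replicate 2.

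The scale matters for the size of the female differences in the 3 genes. In TPM (counts per exon length, as a share of the library, with no TMM factor), the median gene was shifted by 0.35 on the log2 scale in female LKO against CRE- livers relative to TMM-scaled CPM, and by -0.06 in males. On that scale, chosen after seeing the data, the female log2 ratios were -0.05 for Pde4b, -0.30 for Mfsd2a and -0.63 for Pstpip2. The male ratios were -2.11, -3.73 and -1.67 in the same order. The signs did not turn, but the highest female LKO liver and the lowest female control both came to 23.7 TPM for Pstpip2, and the female means of Pde4b were 4.94 TPM in CRE- and 4.78 TPM in LKO livers.

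TPM allows the 3 genes to be compared with each other. In male CRE- livers Mfsd2a had the highest mean (45.0 TPM), then Pstpip2 (31.4 TPM) and Pde4b (6.03 TPM). In male LKO livers the order was Pstpip2 (9.90 TPM), Mfsd2a (3.40 TPM) and Pde4b (1.39 TPM). Mfsd2a thus stood above Pstpip2 in male controls and below it in male LKO livers, although the ranges of the 2 genes overlapped in male controls (29.1 to 68.7 against 30.6 to 32.9 TPM). In females Pstpip2 had the highest mean in both genotypes, at 30.3 and 19.5 TPM, against 16.7 and 13.5 TPM for Mfsd2a. The ranges of these 2 genes overlapped in female LKO livers (15.1 to 23.7 TPM for Pstpip2 against 6.01 to 27.7 TPM for Mfsd2a). In LKO replicate 2 Mfsd2a (27.7 TPM) was above Pstpip2 (16.1 TPM). They did not overlap in female CRE- livers (23.7 to 39.9 against 11.3 to 23.0 TPM). Among all genes tested, Mfsd2a was above 87.1% in male CRE- but 44.4% in male LKO livers, Pstpip2 above 83.0% and 64.0%, and Pde4b above 53.5% and 31.5%. The matching shares in female CRE- and LKO livers were 75.7% and 67.3% for Mfsd2a, 83.7% and 74.3% for Pstpip2, and 54.2% and 46.7% for Pde4b.

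The sexes differed in the 3 genes mostly among LKO livers, and for Mfsd2a also, in the opposite direction, among controls. Among controls the log2 difference of female against male was -0.04 (SE 0.26) for Pde4b, 0.19 (SE 0.17) for Pstpip2 and -1.20 (SE 0.47) for Mfsd2a. Female and male controls overlapped for Pde4b and Pstpip2, whereas 4 of 4 female controls were below every male control for Mfsd2a. Among LKO livers the difference was 1.63 (SE 0.27) for Pde4b, 0.83 (SE 0.17) for Pstpip2 and 1.95 (SE 0.48) for Mfsd2a. All female LKO livers were above all male LKO livers in CPM for 3 of 3 genes, as for 662 of the 16742 genes tested (3.95%), but the libraries that give this count also chose the genes and nothing is read from it. In TPM the LKO groups of Mfsd2a overlapped, with the lowest female at 6.01 and the highest male at 6.08. Without female LKO replicate 2 the Mfsd2a difference in LKO livers was 1.23, and without male CRE- replicate 2 that in controls was -0.82. The small control difference of Pde4b turned sign without male CRE- replicate 3 (0.01) and without female CRE- replicate 2 (0.04) or 4 (0.05), was -0.25 without female CRE- replicate 1 and came to -0.29 in TPM. The control difference of Pstpip2 was 0.10 without female CRE- replicate 1 or 4 and 0.30 without female CRE- replicate 2. On the TPM scale it was -0.05, with the median gene shifted by -0.26 in that contrast.

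The genotype difference itself was estimated to be smaller in females by 1.67 (SE 0.38) on the log2 scale for Pde4b, by 3.15 (SE 0.67) for Mfsd2a and by 0.64 (SE 0.25) for Pstpip2. No p is given for these, since the same libraries chose the genes. The size for Pstpip2 depends on the scale. In TPM without TMM its genotype log2 ratios were -1.67 in males and -0.63 in females. They lay farther apart than the -1.62 and -0.97 from TMM scaling. Over all genes, edgeR's quasi-likelihood test of the difference between the sexes called 0 of 16742 (0%), with 2672 at an unadjusted p under 0.05. For the related genes that follow, a call in 1 sex alone is therefore not shown to be a difference between the sexes.

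Enzymes that share the function of Pde4b were taken as a list of 15 other cAMP phosphodiesterases, of which 14 were tested and Pde11a was not. Over all 16742 genes, 1595 (9.53%) had an unadjusted p under 0.05 in males and 3584 (21.4%) in females, and list counts at that threshold stand beside these shares. In males 0 of 14 passed edgeR's test (1 at an unadjusted p under 0.05, and 0 with DESeq2), and the median log2 fold change was -0.34 against -0.01 over all genes tested. In females 1 rose and 0 fell (4 at an unadjusted p under 0.05, and 3 with DESeq2), with a median of 0.20 against 0.04 over all genes tested. In TPM without TMM this female median was 0.61 against 0.38 over all genes, and the female medians of the lists that follow are given in TPM as well. The gene that rose was Pde10a, a phosphodiesterase of both cAMP and cGMP, which was at 0.665, 0.662, 0.383 and 0.428 CPM in female CRE- livers and at 1.26, 2.37, 1.39 and 3.33 CPM in female LKO livers. It was low throughout and did not overlap between the female groups. Its log2 fold change was 1.95 (SE 0.49, edgeR adjusted p = 0.0382, higher in 4 of 4 libraries). It was not called without any 1 of the female CRE- libraries (adjusted p 0.0594 to 0.112 from edgeR), without female LKO replicate 4 (0.0829) or with the 2 groups fitted alone (0.0688), and without LKO replicate 2 the list had 2 calls. Beside these medians, Pde4b itself had estimates of -2.04 in males and -0.37 in females.

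Upstream and downstream of cAMP, 28 of 29 genes of the cascade were tested, Adcy8 being the exception. In males 0 passed edgeR's test (1 at an unadjusted p under 0.05, and 0 with DESeq2), with a median of -0.16. In females 1 rose and Gcgr itself fell (8 at an unadjusted p under 0.05, and 5 with DESeq2), with a median of 0.12 (0.44 in TPM). Rapgef4, which encodes the cAMP-activated exchange factor Epac2, rose from a mean of 63.7 CPM in female CRE- to 127 CPM in female LKO livers (edgeR adjusted p = 0.0454, higher in 4 of 4 libraries). The call of Rapgef4 did not hold without any 1 of the 8 female libraries (adjusted p 0.0609 to 0.117 from edgeR) or with the 2 groups fitted alone (0.099), and without female LKO replicate 2 the list had 3 calls.

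Of 15 liver genes known to be induced by glucagon or cAMP, 0 passed edgeR's test in males (5 at an unadjusted p under 0.05, and 1 with DESeq2). The 5 were all lower and the median was -0.47 in males, where 9.53% of all genes had such a p. In females 1 rose and 0 fell (7 at an unadjusted p under 0.05, of which 5 were higher, and 3 with DESeq2), with a median of 0.18 (0.60 in TPM). Sik1, a kinase that restrains CREB coactivators, rose by 2.22 (SE 0.46, edgeR adjusted p = 0.0194, higher in 4 of 4 libraries). Sik1 was at 48.7, 58.6, 25.2 and 190.9 CPM in female LKO livers against 15.4 to 19.04 CPM in the controls. It was not called without female CRE- replicate 2, 3 or 4 (adjusted p 0.0691, 0.0669 and 0.0636 from edgeR) or with the 2 groups fitted alone (0.0758), and the list had 2 calls without LKO replicate 2 or 4. Without LKO replicate 4 its log2 fold change was 1.35.

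For Mfsd2a, known from the fasted liver, the comparison list held 16 genes that PPAR alpha drives in fasting, and 16 were tested. In males 1 rose and 0 fell (5 at an unadjusted p under 0.05, of which 4 were higher, and 1 with DESeq2), with a median of 0.36. In females 1 rose and 0 fell (2 at an unadjusted p under 0.05, and 1 with DESeq2), with a median of -0.27 that turned to 0.06 in TPM without TMM. The gene in both sexes was Fgf21, a hormone secreted by the liver in fasting and under stress. It was at 1.298, 1.314, 1.46 and 2.49 CPM in male CRE- and at 113, 43.9, 43.3 and 43.7 CPM in male LKO livers. Female values were 1.89, 1.87, 2.39 and 1.44 CPM in CRE- and 8.13, 24.3, 90.8 and 1.504 CPM in LKO livers. Fgf21 was high in every male LKO liver and in 3 of 4 female LKO livers, with female LKO replicate 4 among the controls. It rose by 5.21 in males (SE 0.87, edgeR adjusted p = 0.0113, 4 of 4 libraries) and by 4.04 in females (SE 0.83, adjusted p = 0.0194, 3 of 4 libraries), where Mfsd2a had estimates of -3.73 and -0.58. Fgf21 was not called without male CRE- replicate 1, 2 or 3 (adjusted p 0.07, 0.0633 and 0.0688 from edgeR), nor in females without CRE- replicate 2, 3 or 4 (0.0749, 0.0578 and 0.065) or with the 2 female groups fitted alone (0.081). Without female LKO replicate 3 its female log2 fold change was 2.57.

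The substrate of Mfsd2a belongs to the pathway of lysophospholipids and phosphatidylcholine, of which 28 of 30 listed genes were tested (Mboat2 and Chkb were not). In males 0 passed edgeR's test (3 at an unadjusted p under 0.05, and 0 with DESeq2), and the median was -0.04. In females 1 rose and 1 fell (7 at an unadjusted p under 0.05, and 4 with DESeq2), with a median of -0.18 that turned to 0.15 in TPM without TMM. Spns2, an exporter of the signalling lipid S1P, was at 35.2, 43.4, 31.8 and 43.3 CPM in female CRE- livers and at 15.7, 14.1, 22.2 and 17.99 CPM in female LKO livers. Its female groups did not overlap, and it fell by 1.13 (SE 0.17, edgeR adjusted p = 0.0037, lower in 4 of 4 libraries), a call that held without any 1 of the 8 female libraries and with the 2 groups fitted alone (0.0392). Pla2g4a, a phospholipase that releases arachidonic acid, rose by 2.07 (SE 0.50, edgeR adjusted p = 0.0335, higher in 4 of 4 libraries). It was not called without female CRE- replicate 2, 3 or 4 (adjusted p 0.11, 0.094 and 0.0882 from edgeR) or LKO replicate 1 (0.118) or with the 2 groups fitted alone (0.0813), and without LKO replicate 2 the list had 4 calls.

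Pstpip2 was set beside 20 other genes of F-BAR proteins, which bend membranes, and 20 were tested. In males 0 passed edgeR's test (4 at an unadjusted p under 0.05, and 0 with DESeq2), with a median of -0.31. In females 2 rose and 0 fell (8 at an unadjusted p under 0.05, all higher, where 21.4% of all genes had such a p, and 3 with DESeq2), with a median of 0.42 (0.76 in TPM). Fes, a tyrosine kinase of myeloid cells, rose by 1.30 (SE 0.35, edgeR adjusted p = 0.0474, higher in 4 of 4 libraries), and Gmip, a RhoA regulator, rose by 1.14 (SE 0.31, adjusted p = 0.0489, 4 of 4). Neither was called without any 1 of the female CRE- libraries or without LKO replicate 1, 3 or 4 (adjusted p 0.0668 to 0.153 for Fes and 0.0543 to 0.163 for Gmip from edgeR) or with the 2 groups fitted alone (0.0758 and 0.102), and the log2 fold change of Gmip was 0.70 without LKO replicate 1. In the same female livers the medians of macrophage and neutrophil markers, given further on, were 1.39 and 3.54. LKO replicate 1 was the highest female liver for Fes (35.1 CPM), Gmip (38.5 CPM) and the macrophage marker Adgre1 (334 CPM), and the part of such cells in the F-BAR values was not tested. Beside these medians, Pstpip2 itself had estimates of -1.62 in males and -0.97 in females.

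Known partners of Pstpip2, which are PEST-type phosphatases and other proteins that bind or act with it, made a list of 6 genes. In males 0 of 6 passed edgeR's test (0 at an unadjusted p under 0.05, and 0 with DESeq2), with a median of -0.21. In females 0 of 6 passed (3 at an unadjusted p under 0.05, all higher, and 2 with DESeq2), with a median of 0.88 (1.28 in TPM), and without LKO replicate 2 there were 2 calls. Csf1r, the receptor that drives macrophage growth, had a female log2 fold change of 1.38 (SE 0.44, edgeR adjusted p = 0.0809, above every control in 3 of 4 libraries). Csk, a kinase that restrains Src kinases, had 0.06 (SE 0.17, edgeR adjusted p = 0.879, above every control in 1 of 4 libraries). The female value of Csk ranged from -0.02 to 0.19 when 1 library was left out, and was 0.44 in TPM without TMM. Csf1r is also in the list of macrophage markers and, like Adgre1, was highest in female LKO replicate 1 (535 CPM), and the part of macrophages in the partner values was not tested.

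**Figure D2:**
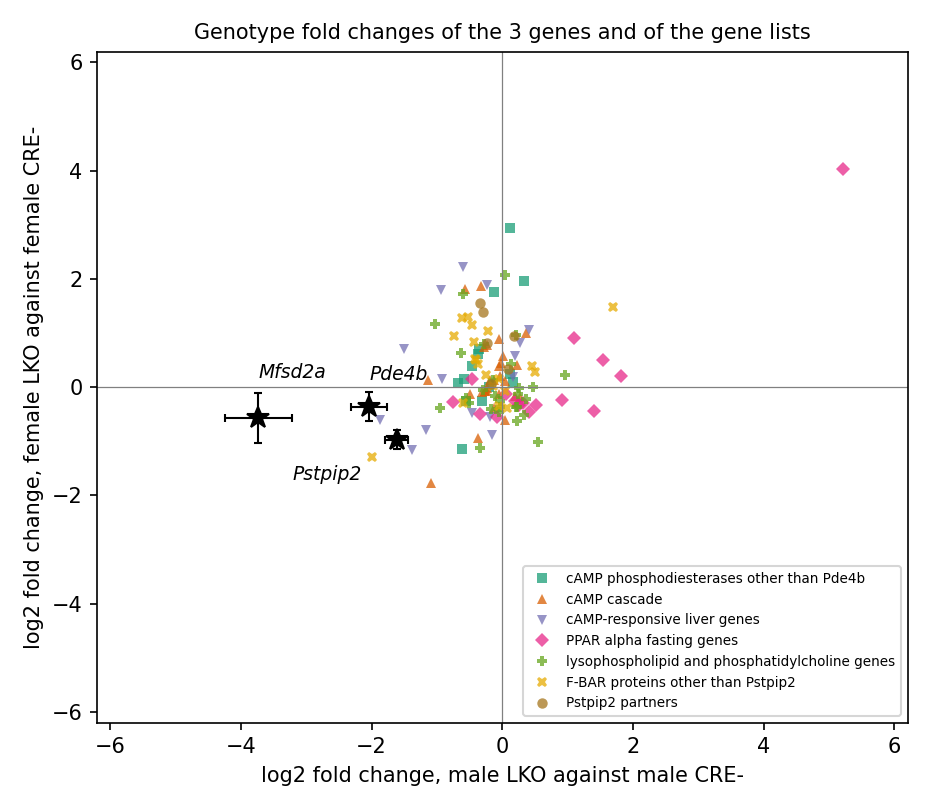
Log2 fold changes of LKO against CRE- livers in males (horizontal) and females (vertical) from edgeR; stars are Pde4b, Mfsd2a and Pstpip2 with SE bars, and small symbols are the tested genes of the 7 related lists. The 3 genes lie at -2.04, -3.73 and -1.62 in males and at -0.37, -0.58 and -0.97 in females, and the symbol at the upper right is Fgf21.

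Because Pstpip2 and Pde4b are known from white blood cells, markers of the cells that a liver sample can hold were read in the same libraries. The summed level of 11 neutrophil markers was 102, 21.9, 19.8 and 205 CPM in male CRE- and 28.0, 18.1, 14.4 and 13.2 CPM in male LKO livers, with S100a9 the most abundant and Ly6g at 0 in all male LKO livers. In females the sum was 40.6, 21.5, 17.4 and 19.9 CPM in CRE- and 153, 46.8, 79.4 and 684 CPM in LKO livers. The sum thus overlapped in males and was higher in every female LKO liver than in any female control, while Pstpip2 was lower in LKO livers of both sexes. Of 10 neutrophil markers tested, 0 passed edgeR's test in males (8 at an unadjusted p under 0.05, all lower, and 4 with DESeq2; median -2.23). In females 4 rose (10 at an unadjusted p under 0.05, and 9 with DESeq2; median 3.54, and 3.84 in TPM), namely Mpo, Ngp, Retnlg and Mmp8. Their female log2 fold changes were 5.23, 4.68, 2.86 and 3.50 (adjusted p 0.0332, 0.0483, 0.0331 and 0.0266 from edgeR's quasi-likelihood test), above every control in 3, 3, 4 and 4 of 4 libraries. Without any 1 of female CRE- replicates 2 to 4 or of LKO replicates 1 and 4 none of these 4 was called (adjusted p 0.0515 to 0.155 from edgeR), nor with the 2 groups fitted alone (0.0634 to 0.0851), and without CRE- replicate 1 or LKO replicate 3 some were lost (Ngp 0.0758 and 0.0519, and without CRE- replicate 1 also Retnlg 0.0535 and Mmp8 0.0511). The log2 fold change of Ngp was 2.79 without LKO replicate 4. Female LKO replicate 4 had the highest neutrophil sum and also the highest Pde4b and Pstpip2 among female LKO livers. The part of these cells in the values of Pde4b and Pstpip2 was not tested.

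Macrophage and Kupffer cell markers, 10 genes that include Csf1r, summed to 1057, 505.5, 275 and 1571 CPM in male CRE- and to 1444, 732, 780 and 720 CPM in male LKO livers. In females they summed to 904, 645, 713 and 1363 CPM in CRE- and to 3539, 1144, 2571 and 1764 CPM in LKO livers, with no marker at 0. By mean CPM Lyz2 was the most abundant of them in both male groups and Clec4f in both female groups. These sums overlapped in both sexes. In males 0 of 10 passed edgeR's test (0 at an unadjusted p under 0.05, and 0 with DESeq2; median 0.10). In females 1 rose (8 at an unadjusted p under 0.05, and 6 with DESeq2; median 1.39, and 1.83 in TPM), which was Adgre1 with 2.15 (SE 0.57, edgeR adjusted p = 0.0451, higher in 4 of 4 libraries). Adgre1 was not called without any 1 of the female CRE- libraries (adjusted p 0.0832 to 0.139 from edgeR) or without LKO replicate 1 (0.189) or 3 (0.0561) or with the 2 groups fitted alone (0.0857), and its log2 fold change was 1.21 without LKO replicate 1. In females Pstpip2 was lower in every LKO liver, while the macrophage sums overlapped and the median of these markers was 1.39. Macrophages are known to express Pstpip2, and their part in its value was not tested.

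Erythroid markers, 5 genes with Hbb-bs the most abundant, summed to 710.5, 587, 505 and 964.5 CPM in male CRE- and to 183, 367, 288 and 455 CPM in male LKO livers, 2 of which had 1 marker at 0. In females the sums were 493, 440.3, 358 and 710.2 CPM in CRE- and 367, 793, 274 and 1497 CPM in LKO livers. They did not overlap in males, as for the 3 genes, and overlapped in females. In neither sex did any of 5 pass edgeR's test (4 at an unadjusted p under 0.05 in males and 0 in females, and 0 with DESeq2 in either; medians -1.28 and 0.57, the latter 0.86 in TPM). Their part in the male values of Pde4b, Mfsd2a and Pstpip2 was not tested.

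Hepatocyte markers, 6 genes with Alb the most abundant and none at 0, show the labelled tissue in every library. They summed to 68831, 94255, 104456 and 94050 CPM in male CRE- and to 61710, 71923, 88888 and 73265 CPM in male LKO livers. In females they summed to 112822, 110006, 115526 and 132746 CPM in CRE- and to 48678, 90491, 85621 and 66331 CPM in LKO livers. Every female LKO liver was below every female control, as for Pstpip2, and the male groups overlapped. In neither sex did any of 6 pass edgeR's test (2 at an unadjusted p under 0.05 in males and 4 in females, and 0 and 2 with DESeq2; medians -0.24 and -0.83, the latter -0.54 in TPM). The part of hepatocyte content in the values of the 3 genes was not tested.

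Of the other lists, 1 of 7 endothelial markers rose in females (3 at an unadjusted p under 0.05, all higher, and 2 with DESeq2; median 0.39, and 0.77 in TPM), Cdh5 with 0.79 (SE 0.17, edgeR adjusted p = 0.0249, higher in 4 of 4 libraries). Cdh5 was not called without female CRE- replicate 2, 3 or 4 (adjusted p 0.0745, 0.0672 and 0.0679 from edgeR), without LKO replicate 1 (0.0588) or with the 2 groups fitted alone (0.0766). The list did not move 1 way, since Clec4g, Kdr and Oit3 had female estimates of -0.70, -0.12 and -0.09 (adjusted p 0.332, 0.805 and 0.872 from edgeR). In males 0 of 7 passed (0 at an unadjusted p under 0.05, and 0 with DESeq2). In either sex edgeR called 0 of 7 markers of T and NK cells, 0 of 6 of B and plasma cells, 0 of 6 of stellate cells and fibroblasts, 0 of 5 of cholangiocytes and 0 of 4 of adipocytes, and DESeq2 called 0 as well. Among these, the counts at an unadjusted p under 0.05 in males and females were 0 and 1, 0 and 1, 1 and 0, 0 and 0, and 2 and 1. In the same order male medians were -0.01, 0.08, -0.62, 0.44 and 4.37, and female medians 0.28, 0.59, -0.11, 0.24 and -0.59. In TPM the female medians were 0.65, 0.95, 0.31, 0.60 and -0.44, so that of stellate cells and fibroblasts turned sign. The adipocyte markers Plin1 and Lep were at 0 in every male CRE- liver, and Lep in every female LKO liver. Counts do not fix the size of a fold change from or to 0.

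**Figure D3:**
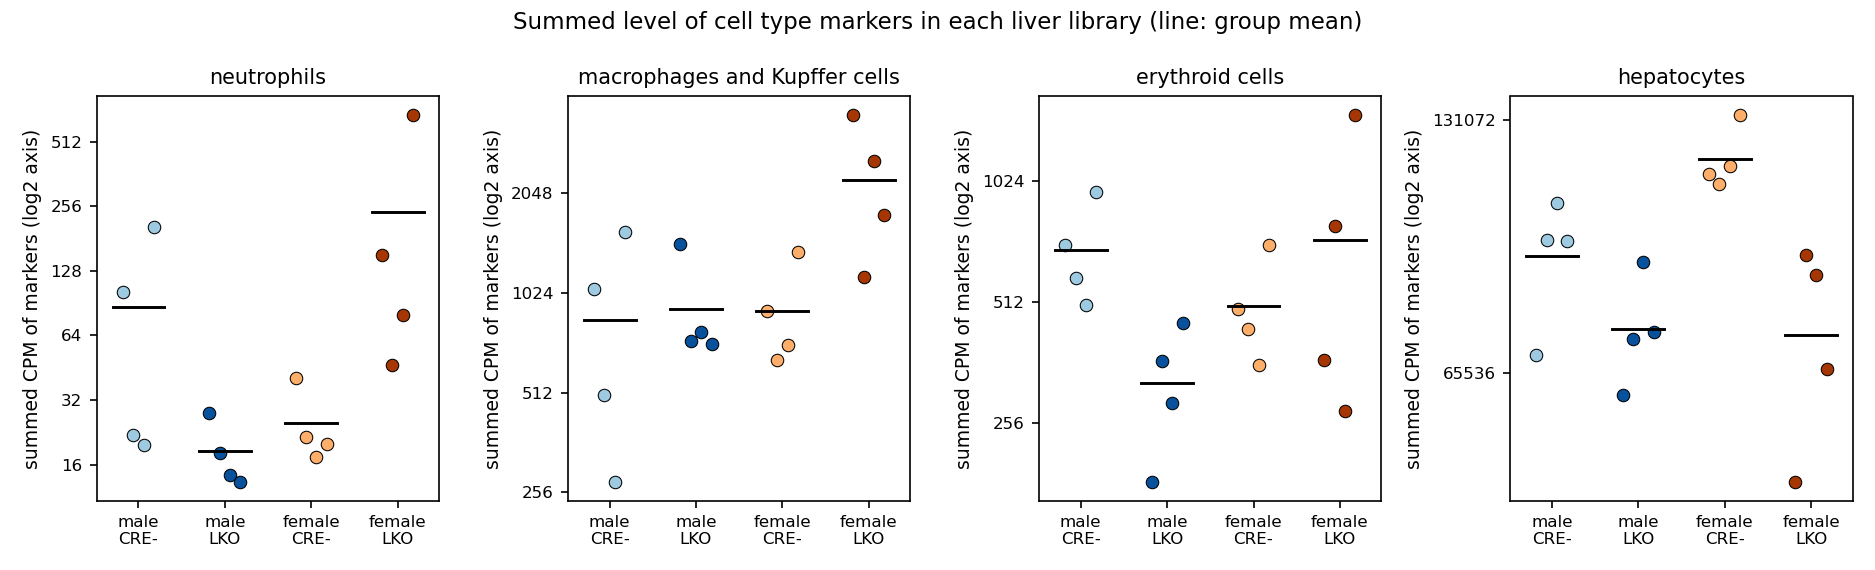
Summed TMM-scaled CPM (log2 axis) of markers of neutrophils, macrophages and Kupffer cells, erythroid cells and hepatocytes in each of the 16 liver libraries; points are mice and lines are group means of 4 mice. Neutrophil sums of female LKO livers (46.8 to 684) lie above those of female controls (17.4 to 40.6), and erythroid sums of male LKO livers (183 to 455) lie below those of male controls (505 to 964.5).

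Pde4b and Mfsd2a both lie on chromosome 4, and Pstpip2 lies on chromosome 18. In GRCm39 Pde4b spans chr4:101944529-102464459 on the plus strand with 7568 bases of exons, Mfsd2a spans chr4:122840643-122855844 on the minus strand with 3168 bases, and Pstpip2 spans chr18:77882250-77971462 on the plus strand with 3287 bases. GENCODE lists 13 transcripts for Pde4b, 15 for Mfsd2a and 14 for Pstpip2, and a count per gene does not tell them apart. The nearest tested gene before Pde4b is Lepr, the leptin receptor, 268154 bases away. Lepr was at 2.84, 2.14, 3.45 and 1.18 CPM in female CRE- and at 29.6, 64.2, 83.0 and 5.81 CPM in female LKO livers. It was higher in every female LKO liver than in any female control, and it rose by 4.25 (edgeR adjusted p = 0.00977, 4 of 4 libraries), opposite to the direction of Pde4b, a call that held without any 1 of the 8 female libraries and with the 2 female groups fitted alone (0.0382). In males its log2 fold change was 3.06 (edgeR adjusted p = 0.0759, higher in 4 of 4 libraries), which did not pass, although it did with no filter on low counts (0.0357), with the 2 male groups fitted alone (0.0436), with a replicate block (0.0258) and with DESeq2 (0.00339). Lepr did not pass in males with RLE scaling (edgeR adjusted p = 0.0786). It passed in 1 of 8 fits without 1 male library (0.0233 to 0.22 from edgeR), with log2 fold changes of 2.72 to 4.08. Male CRE- replicate 3 stood apart at 10.3 CPM, against 1.75, 1.85 and 2.29 CPM in the other male controls. Sgip1 on the other side of Pde4b had -0.86 in males and 1.31 in females (adjusted p 0.768 and 0.383 from edgeR). The male value leans on CRE- replicate 3 at 1.82 CPM. The other male controls were at 0.325, 0.134 and 0.360 CPM, and male LKO livers at 0.257 to 0.596 CPM. Cap1 and Mycl beside Mfsd2a had -0.26 and -0.47 in males and 0.54 and -0.23 in females (adjusted p 0.805, 0.662, 0.294 and 0.714 from edgeR). Cap1 was at 296 CPM in female LKO replicate 1, against 103.6, 101.4 and 109.9 CPM in the other female LKO livers. Mycl was at 4.11 CPM in female LKO replicate 4, against 10.98, 15.06 and 12.44 CPM in the others. Each of these female estimates thus leans on 1 library. Beside Pstpip2, Atp5f1a had -0.09 and -0.45, and Epg5 had -0.66 and -0.31, in males and females (adjusted p 0.919, 0.198, 0.27 and 0.437 from edgeR). Lepr passed the test in females, and the other 5 neighbours passed in neither sex. Antisense genes overlap Pde4b (Gm52669, Gm52668 and Gm52667) and Pstpip2 (F830208F22Rik), with at most 32 counts in any library, and none of them was tested.

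Genes with a pattern like that of the 3 were sought by Pearson's r of log2 CPM over the 16 libraries among 13079 genes, as a description. With group differences kept, Pde4b was most like Antxr2 (r = 0.906), Pstpip2 (0.906) and Gm33699 (0.894). Pstpip2 was most like Slc23a1 (0.908), Pde4b (0.906) and Sema4a (0.904). Mfsd2a had r = 0.791 with Pde4b and 0.802 with Pstpip2. These values hold the group differences that chose the 3 genes. After each group's mean was removed, so that only variation among mice of a group remained, Pde4b was most like Caskin2 (0.870), Gfra1 (0.859) and Vwf (0.856), the last a clotting factor of endothelium and platelets. Mfsd2a was then most like Slc6a13 (0.921), Nln (0.893) and Ugdh (0.886), of which Slc6a13 is a transporter of taurine and GABA. Pstpip2 was most like Hp (0.896), Saa2 (0.887) and Tmem120b (0.887), and Hp and Saa2 encode acute-phase proteins of the liver. The same r between Pde4b and Pstpip2 was 0.624, but it rests on single libraries: it was 0.193 in the other 14 without female LKO replicates 3 and 4, the 2 farthest from the median of Pde4b, and it was 0.735 over the 8 females and -0.66 over the 8 males. Mfsd2a had 0.03 with Pde4b (-0.363 without those 2 libraries) and -0.01 with Pstpip2. Without the 2 libraries farthest from the median of each gene, the 9 genes named with group means removed had r of 0.632 to 0.884. The median within-group r over 10 neutrophil markers was 0.428 for Pde4b, 0.457 for Pstpip2 and -0.348 for Mfsd2a, and over 10 macrophage markers it was -0.256, -0.01 and -0.322. Over 4 erythroid markers it was 0.329 for Pde4b, 0.595 for Pstpip2, the highest of its marker lists, and 0.152 for Mfsd2a. Without the 2 farthest libraries of each gene, the neutrophil medians were 0.048, 0.233 and 0.041, the macrophage medians -0.11, 0.094 and -0.112, and the erythroid medians -0.477, 0.492 and 0.128 for Pde4b, Pstpip2 and Mfsd2a, so several of these rest on those libraries. For the other 7 marker lists it lay between -0.441 and 0.284 in the 3 genes. The libraries share depth and tissue composition, which enter every r.

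Promoter sequences are shown because Pde4b and Mfsd2a were both low in male LKO livers and the motif of CREB, the factor that cAMP activates, can be looked for in them. RefSeq promoters (250 bases before to 50 after a start, table built on GRCm38.p6) were found for 2 of the 3 genes, 4 for Pde4b and 1 for Mfsd2a, and not for Pstpip2. The 4 starts of Pde4b lie inside the gene, at chr4:102278752 to 102447040, while the gene begins at 101944529. A promoter at that first position was not among them and was not searched, and which start the livers used was not tested. Each had 1 exact match in GRCm39, which gives the coordinates here. Both strands were searched for TGACGTCA, the full cAMP response element, for its core letters TGACG or CGTCA, which the full element also contains, and for AGGTCA or TGACCT, the core letters bound by nuclear receptors such as PPAR alpha. Of all 32851 promoters in the table, 1.79% held TGACGTCA, 20.8% TGACG or CGTCA, and 16.3% AGGTCA or TGACCT. None of the 5 promoters held TGACGTCA. Promoter 1 of Pde4b (chr4:102278502-102278801, plus strand) held CGTCA, promoter 3 of Pde4b (chr4:102444505-102444804, plus strand) held TGACCT, and the Mfsd2a promoter (chr4:122854932-122855231, minus strand) held AGGTCA. Promoters 2 and 4 of Pde4b held none of these letters and are not shown. A match describes letters and not a bound site. The sequences run 5′ to 3′ on the strand of the gene, with the matched letters in capitals.
Pde4b promoter 1: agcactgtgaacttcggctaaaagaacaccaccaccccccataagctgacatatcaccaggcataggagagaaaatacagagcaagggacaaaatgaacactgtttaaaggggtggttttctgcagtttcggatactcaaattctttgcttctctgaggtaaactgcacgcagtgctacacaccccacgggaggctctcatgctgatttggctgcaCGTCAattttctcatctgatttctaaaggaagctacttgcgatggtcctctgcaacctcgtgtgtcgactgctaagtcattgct
Pde4b promoter 3: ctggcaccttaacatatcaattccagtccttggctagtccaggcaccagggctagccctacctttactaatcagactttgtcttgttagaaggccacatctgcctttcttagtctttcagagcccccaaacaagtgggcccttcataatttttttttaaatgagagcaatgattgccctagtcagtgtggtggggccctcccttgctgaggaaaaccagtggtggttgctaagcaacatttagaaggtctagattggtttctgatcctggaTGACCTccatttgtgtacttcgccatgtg
Mfsd2a promoter: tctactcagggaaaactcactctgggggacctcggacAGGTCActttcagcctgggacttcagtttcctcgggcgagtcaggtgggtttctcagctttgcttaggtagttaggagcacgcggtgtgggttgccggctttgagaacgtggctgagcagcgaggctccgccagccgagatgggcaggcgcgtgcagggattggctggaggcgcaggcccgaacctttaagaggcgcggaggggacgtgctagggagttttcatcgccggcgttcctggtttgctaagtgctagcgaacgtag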

How the data were processed

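For each gene the authors deposited a raw count (reads, not read pairs) in every library, beside its GRCm39 position and exon length. The submitters' processing notes name STAR 2.7.1a and featureCounts from Subread 2.0.6. Genes were kept by edgeR's filterByExpr (minimum count 10) and 16 libraries in 4 groups were fitted together by edgeR 4.0.16 with limma 3.58.1 in R 4.3.3, with TMM scaling; its quasi-likelihood p were adjusted by Benjamini and Hochberg's method over all genes tested, with a threshold of 0.05. DESeq2 1.42.0, RLE scaling, no filter, 2 groups fitted alone, a replicate block and leaving out each library were the alternatives, and TPM without TMM was chosen after seeing the data. TPM came from the counts and the deposited exon lengths. Likeness is Pearson's r of log2 CPM (prior count 2) over genes with a mean CPM of at least 1. The genes most like Mfsd2a with group differences kept are not reported here. The 3 genes and all lists were chosen with earlier results of these data known. From each list the genes past the threshold are named, at most 4 per sex, and where none passed in either sex the 2 with the highest mean TPM. Of the marker lists, genes past the threshold, the most abundant marker and a marker at 0 throughout a group are named where the list is described library by library, and neighbours are the nearest tested gene on each side. Tests of the sexes were also planned for the 3 genes, but their p are not printed because the same libraries chose the genes. The notes say that the strand was used in counting, while the library protocol names no step that marks the strand. Totals of 33268424 to 56488920 reads gave the 3 genes at least 122 counts in every library, and counting error was not separated from the spread between mice.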

Additional observations from a re-analysis of the deposited data

Results flagged for a closer look

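In 12 of 88 groups of 4 libraries 1 library stood far from the other 3. Chance gives this in about 1 in 20 groups if the values are independent and normally distributed. CPM were not shown to be normal, and some groups share genes, as Adgre1 is in the macrophage sum and Ngp in the neutrophil sum. No excess over chance is therefore read from this count. Mfsd2a was at 115.6 CPM in male CRE- replicate 2, far above the other male controls. Among male controls Fgf21 was high at 2.49 CPM in replicate 4, Gcgr low at 127.3 CPM in replicate 3 and Rapgef4 low at 65.8 CPM in replicate 4. Among male LKO livers, replicate 1 was high for Fgf21 (113.3 CPM), Adgre1 (62.2 CPM) and the summed macrophage markers (1443.6 CPM), and replicate 4 was low for Mmp8 (0.054 CPM, 2 counts). In female CRE- livers Mpo was high at 1.15 CPM in replicate 1. Female LKO replicate 4 was high for the summed neutrophil markers (683.6 CPM) and for Ngp (96.1 CPM), and female LKO replicate 1 was high for Gmip (38.5 CPM).

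For Mmp8, a collagenase of neutrophils, every male LKO liver was below every male control and every female LKO liver was above every female control in CPM. The nearest male pair had 16 counts each, at 0.356 CPM in CRE- replicate 2 and 0.333 CPM in LKO replicate 2. The order of that pair therefore rests on library totals and TMM scaling. The log2 fold changes of the sexes differed by 6.32, and edgeR's test of that difference gave an adjusted p of 0.104, which did not pass the threshold.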

How the results depend on the processing

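The log2 fold changes of Pde4b, Mfsd2a and Pstpip2 kept their sign in the LKO against CRE- contrasts of both sexes and in the LKO sex difference under every alternative tried. Among controls the sex difference of Pde4b ranged from -0.29 to 0.05, and that of Pstpip2 from 0.10 to 0.30 when 1 library was left out. In TPM without TMM, chosen after seeing the data, Pstpip2 came to -0.63 in female LKO against CRE- livers and to -0.053 in female against male controls.

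DESeq2 called 339 genes in males and 1816 in females. In female LKO livers it called 3 phosphodiesterases, 5 cascade genes, 3 cAMP-responsive genes, 4 lysophospholipid genes and 2 Pstpip2 partners, and in males 1 cAMP-responsive gene. With 2 groups fitted alone there were 119 calls in females, 1 cAMP-responsive gene in males, 1 lysophospholipid gene in females and 0 in females for the phosphodiesterase, cascade, cAMP-responsive, PPAR alpha and F-BAR lists. That fit also called none of the female markers named as rising: edgeR's adjusted p was 0.0763 for Mpo, 0.0851 for Ngp, 0.0634 for Retnlg, 0.0699 for Mmp8, 0.0857 for Adgre1 and 0.0766 for Cdh5. With no filter 1 cascade gene was called in females, and Gcgr was lost (edgeR adjusted p = 0.0545).

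Replicate numbers are those of the sample titles. For male CRE- replicate 4 and female LKO replicates 3 and 4 they differ from the library numbers of the deposited counts. Some libraries with the same replicate number therefore do not share a library number. Libraries of different groups with the same replicate number had correlations of -0.25 to 0.332 after group means were removed, so the numbers were not taken as pairs. Within a sex, LKO and CRE- libraries with the same number had -0.013 to 0.173, with 6 of 8 over 0.1. A library correlated best with its own number in 24 of 48 comparisons with another group, where 1 in 4 would be 12, so shared variation by number is not excluded. A replicate block gave 1244 calls in females, 2 phosphodiesterases, 5 cascade genes and 1 Pstpip2 partner.

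Leaving out 1 library gave 26 to 49 calls in males and 87 to 1310 in females. Female list counts ranged over 0 to 2 for phosphodiesterases, 0 to 3 for the cascade, 0 to 2 for cAMP-responsive, 0 to 1 for PPAR alpha (also 0 to 1 in males), 1 to 4 for lysophospholipid, 0 to 2 for F-BAR genes and 0 to 2 for Pstpip2 partners. The cause was not tested for any of these changes. RLE scaling moved none of these results past the limits used, and 4 mice per group limit the precision of each value.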
